A study of Mus musculus with 18 samples.

Results

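Collagen and laminin genes were followed across 6 kinds of cultured mouse pluripotent stem cells by RNA-seq. The genes were taken by name alone: a symbol had to consist of Col, a number, the letter a and a number, or of Lama, Lamb or Lamc and a number. Of the 35773 genes in the count files, 55 carried such a symbol, and 41 of these had at least 10 counts in at least 3 of the 18 libraries. These 41 genes are described here among 16901 genes that passed the same minimum. The other 14 never exceeded 7 counts in any library: Col24a1, Col4a3, Col4a4, Col14a1, Col19a1, Col9a1, Col6a6, Col10a1, Col8a1, Col28a1, Col25a1, Col15a1, Lama2 and Lamc3.

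Laminins are cross-shaped trimers of an alpha, a beta and a gamma chain, and they start the assembly of a basement membrane at the cell surface, where integrins and dystroglycan bind the alpha chain. Type IV collagen, a network-forming trimer most often built from the Col4a1 and Col4a2 chains, stabilises that sheet, and nidogen and perlecan link both polymers. In the early mouse embryo the epiblast, the source of pluripotent stem cells, rests on such a basement membrane, and the laminin chains Lama1 and Lama5 are the main alpha chains at that stage. The fibrillar collagens, such as types I, II, III and V, form the cables of connective tissue and cartilage, and the fibril-associated collagens decorate them.

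All 6 groups held 3 libraries, labelled as wild type 129S2/SvPasCrl cells with embryonic stem cells as their source. ESC are naive embryonic stem cells in 2iL medium. AFSC are primed pluripotent cells kept in Activin A and FGF2, and ASC, called advanced pluripotent stem cells, were derived from AFSC. ESC-ASC are ESC that had been converted to ASC. EpiLC are epiblast-like cells and EpiSC epiblast stem cells, whose media are not given in the sources used here. Per the study's methods, the medium of ASC and ESC-ASC, called ABCL, holds activin A, BMP4, the GSK3 inhibitor CHIR99021 and LIF. By the study's account, AFSC were derived on fibronectin without feeder cells, and ASC were likewise derived on fibronectin. ASC lines were grown from colonies that were picked for a GFP reporter of Oct4 while other cells died. That reporter used the promoter and distal enhancer of Oct4 without its proximal enhancer. The methods report its expression in the inner cell mass, in primordial germ cells and in ESC. The methods describe AFSC from embryos fathered by transgenic reporter males of mixed strain background. A figure legend of the study gives such a cross for ESC, EpiLC and EpiSC as well. The labels, wild type and 129S2/SvPasCrl, differ from that description. The study's results name 2 ESC lines as the source of ESC-ASC, and the labels give no line for ESC or ESC-ASC. A difference of line and a change of medium therefore cannot be told apart between ESC and ESC-ASC. The labels do not say whether the 3 libraries of a group came from separate cultures or lines, so p-values measure the spread between these libraries only.

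Counted fragments per library ranged from 4961934 to 18071600. The 3 ESC-ASC libraries held 17813619 to 18071600 and every other library at most 9906473, so depth and the ESC-ASC group cannot be told apart. After scaling, summed levels of 6 naive markers were 3820 to 4880 in ESC, 3810 to 4530 in ASC and 2820 to 3040 in ESC-ASC, against 97.5 to 121 in EpiLC, 17.2 to 24 in AFSC and 9.02 to 10.4 in EpiSC. Sums of 5 primed markers ran the other way, from 248 to 401 in the former groups and from 1930 to 4630 in the latter. Replicate 1 of ESC, ASC, EpiLC and AFSC stood apart from its group over all genes, and replicate 2 of ESC-ASC and EpiSC did so to a lesser degree. The collagens and laminins moved together in some libraries: 36 of 41 lay above the group mean in ASC replicate 1 (median log2 deviation 0.458) and 32 in AFSC replicate 3 (0.328), while 7 did so in AFSC replicate 2 (-0.488). Further upward shifts were in ESC-ASC replicate 2 (32 above, 0.318) and EpiLC replicate 2 (32, 0.206). Downward shifts were also seen in ASC replicate 3 (6 above, -0.267), ESC-ASC replicate 1 (8, -0.114) and ESC replicate 2 (9, -0.164). The median deviation of all genes lay between -0.012 and 0.017 in every library. Below, a level is a count divided by the library's size factor and by the exonic length in kb, and values in threes are replicates 1, 2 and 3. A gene counted as higher or lower when edgeR's quasi-likelihood test gave a Benjamini-Hochberg adjusted p below 0.05 over all 16901 genes and the difference exceeded 2-fold. Fold changes are given on the log2 scale, with the group named first in the numerator.

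**Figure D1:**
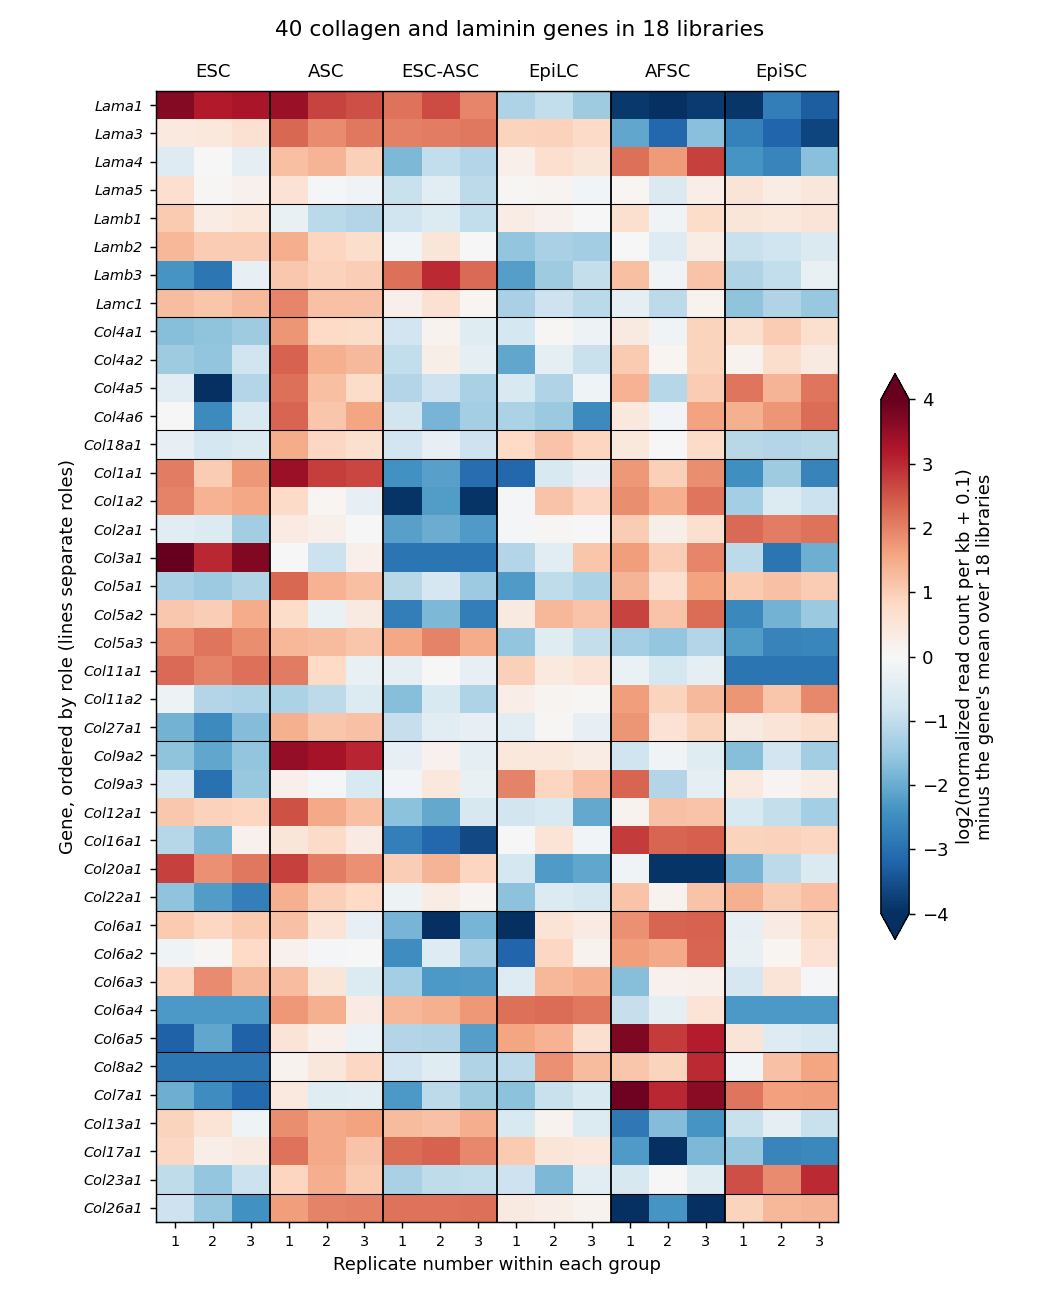
Level of 40 of the collagen and laminin genes (rows, ordered by role) in the 18 libraries (columns, ordered by group), as the log2 difference from the gene's mean over all libraries. Lama1 is above its mean in the ESC, ASC and ESC-ASC columns and below it in the EpiLC, AFSC and EpiSC columns, and Col9a2 is highest in the 3 ASC columns.

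All 41 genes differed among the 6 groups (78.6% of all tested genes did so). The share of the genes that shifted in a given comparison varied more. Against ESC, 22 of 41 were higher and 4 lower in ASC, 9 higher and 16 lower in ESC-ASC, 12 higher and 10 lower in EpiLC, 20 higher and 13 lower in AFSC, and 16 higher and 17 lower in EpiSC. With replicates 2 and 3 alone, an alternative chosen after seeing the data, the balance in ESC-ASC was 13 higher and 12 lower. Over all genes tested the corresponding shares were 18.5% higher and 7.26% lower in ASC, 19.3% and 17.1% in ESC-ASC, 18% and 15.9% in EpiLC, 19.9% and 19.6% in AFSC, and 19% and 22% in EpiSC. Either direction counted, 25.8%, 36.4%, 34%, 39.5% and 41% of all genes were called in these 5 comparisons, which share the ESC libraries. The 41 genes had to reach the count minimum in some libraries, and a gene that did so in high groups alone had to differ, so these counts are a description.

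Promoter sequences are shown for Col4a1 and Col4a2, the core type IV pair that begins on 1 stretch of DNA, and for Col9a2, a collagen with a large rise in ASC. RefSeq windows (GRCm38.p6) of 300 bases, from 250 before to 50 after a start, were at hand for 29 of the 41 genes in 32 windows. Col4a1 and Col4a2 lie head to head on chromosome 8, with starts 21 bp apart on opposite strands, so that their windows share 78 bp. The Col4a1 window is chr8:11312777-11313076 on the minus strand, that of Col4a2 chr8:11312555-11312854 on the plus strand, and that of Col9a2 chr4:121039316-121039615 on the plus strand. Each is printed 5′ to 3′ along its gene, and capitals mark CCAAT, the letters of the CCAAT box, and GGGCGG, the letters of a GC box, on either strand.
Col4a1: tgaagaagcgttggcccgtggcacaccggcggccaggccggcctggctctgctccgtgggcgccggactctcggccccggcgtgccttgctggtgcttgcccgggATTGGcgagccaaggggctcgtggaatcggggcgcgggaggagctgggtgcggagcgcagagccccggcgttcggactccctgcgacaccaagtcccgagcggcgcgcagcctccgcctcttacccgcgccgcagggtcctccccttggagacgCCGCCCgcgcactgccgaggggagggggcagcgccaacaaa
Col4a2: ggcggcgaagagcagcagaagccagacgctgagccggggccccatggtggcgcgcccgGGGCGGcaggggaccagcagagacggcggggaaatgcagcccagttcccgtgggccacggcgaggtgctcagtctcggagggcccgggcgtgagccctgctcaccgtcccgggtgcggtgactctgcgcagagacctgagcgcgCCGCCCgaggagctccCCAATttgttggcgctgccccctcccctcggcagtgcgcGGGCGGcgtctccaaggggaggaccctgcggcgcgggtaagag
Col9a2: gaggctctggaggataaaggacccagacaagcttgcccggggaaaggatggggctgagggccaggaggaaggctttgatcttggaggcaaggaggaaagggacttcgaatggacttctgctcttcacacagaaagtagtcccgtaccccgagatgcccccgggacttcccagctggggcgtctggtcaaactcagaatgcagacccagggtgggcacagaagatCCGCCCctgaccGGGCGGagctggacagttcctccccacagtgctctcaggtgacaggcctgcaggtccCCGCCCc
The Col4a1 and Col4a2 windows are rich in G and C (74% and 73.7%, against 61.7% for Col9a2), and each holds both motifs. The only GGGCGG match of Col4a1, 9 bases after its start, lies in the shared 78 bp. It is the same stretch of DNA as the Col4a2 match 7 bases after that gene's start. The Col9a2 window has GGGCGG 3 times and no CCAAT, and TATAAA was found in none of the 3. Among the 32 windows, GGGCGG was present in 22 (68.8%), against 35.7% of 32851 promoters of the same length. CCAAT was present in 37.5% against 37.4%, and TATAAA in 12.5% against 13.6%. Some of the 32 windows overlap, namely those of Col4a1 with Col4a2, and those within Lamb3 and within Col6a2. The 32851 promoters were not matched to the windows for G and C content. These matches are letters in a window and not measured binding sites.

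Among laminin alpha chains, Lama1 separated ESC, ASC and ESC-ASC from the other 3 groups by the widest margin. Lama1 (ENSMUSG00000032796, GRCm38 17:67697265-67822645, plus strand) encodes the alpha chain of the early embryonic laminin. Lama1 levels were 177, 126 and 132 in ESC, 152, 90.8 and 82.9 in ASC and 61.7, 84 and 53.6 in ESC-ASC. Lama1 levels were lower in the other groups, at 5.83, 6.97 and 5.06 in EpiLC, 0.849, 0.608 and 0.871 in AFSC and 0.827, 1.94 and 1.3 in EpiSC. No library of the first 3 groups overlapped with any of the last 3, and EpiLC lay between both sets. Lama1 was higher in ASC than in AFSC (log2 fold change 7.08, SE 0.347, adjusted p = 4.04e-12), lower in EpiLC than in ESC (log2 fold change -4.58, SE 0.267, adjusted p = 3.91e-11), and lower still in AFSC (-7.51) and EpiSC (-6.67) against ESC. ASC and ESC overlapped (log2 fold change -0.43, SE 0.218, adjusted p = 0.107). ESC-ASC fell below ESC with no overlap (log2 fold change -1.13, SE 0.219, adjusted p = 0.000204), a difference that was just under 2-fold without ESC replicate 1 (-0.98) or ESC-ASC replicate 3 (-0.99). Like Lama1, all 6 naive markers were higher in ASC than in AFSC, and lower in EpiLC, AFSC and EpiSC than in ESC. None of the 6 was called between ASC and ESC, where Klf4 and Tbx3 had higher means in ASC and Tfcp2l1 and Prdm14 lower ones. The part of these markers in the Lama1 result was not tested. In bulk samples, fewer cells that express a gene and less RNA per cell cannot be told apart.

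Lama5, the alpha chain that persists in most later epithelia, was the most abundant alpha chain in every library. Lama5 (chromosome 2:180176373-180225859, minus strand) stood at 596, 385 and 419 in ESC, 557, 360 and 339 in ASC and 201, 270 and 181 in ESC-ASC. Lama5 remained high in the primed groups, at 380, 400 and 346 in EpiLC, 391, 246 and 445 in AFSC and 526, 457 and 513 in EpiSC. ESC-ASC had the lowest mean and overlapped with AFSC alone. The only call against ESC was in ESC-ASC (log2 fold change -1.11, SE 0.23, adjusted p = 0.000379), which fell short of 2-fold without ESC replicate 1 (-0.91) or ESC-ASC replicate 3 (-0.99). Expressed per length, Lama5 made up 75.3% of the summed alpha chain level in ESC, 76.3% in ASC, 71.5% in ESC-ASC, 96% in EpiLC, 98.2% in AFSC and 99.6% in EpiSC. Lama1 made up 23.5%, 19.6% and 21.8% in ESC, ASC and ESC-ASC, and 1.52%, 0.216% and 0.278% in EpiLC, AFSC and EpiSC.

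Lama3, the alpha chain of epithelial anchoring laminin, was highest in both ABCL cultures. Lama3 levels were 6.05, 6.17 and 6.96 in ESC, 22.5, 17 and 19.9 in ASC and 18.7, 19 and 20.1 in ESC-ASC. Lama3 levels in the remaining groups were 8.5, 8.64 and 7.77 in EpiLC, 1, 0.431 and 1.35 in AFSC and 0.611, 0.41 and 0.267 in EpiSC. Both ABCL groups lay above all other libraries and overlapped each other. Lama3 was higher in ASC than in ESC (1.60 on the log2 scale) and AFSC (log2 fold change 4.36, SE 0.249, adjusted p = 3.2e-11), higher in ESC-ASC than in ESC (log2 fold change 1.57, SE 0.193, adjusted p = 1.14e-06), and lower in EpiSC than in ESC (log2 fold change -3.93, SE 0.302, adjusted p = 1.15e-09). It supplied 6.55% of the alpha chain level in ESC-ASC and 3.72% in ASC. Lama4, the alpha chain typical of vessels and mesenchyme, was highest in AFSC. Lama4 was 0.653, 0.964 and 0.74 in ESC, 2.41, 2.67 and 2 in ASC, 0.209, 0.445 and 0.375 in ESC-ASC, 1.15, 1.61 and 1.42 in EpiLC, 4.91, 3.45 and 7.04 in AFSC and 0.109, 0.073 and 0.237 in EpiSC. AFSC stood above every other library, and EpiSC and ESC-ASC overlapped at the bottom. Lama4 was higher in AFSC than in EpiSC (log2 fold change 5.12, SE 0.427, adjusted p = 1.79e-08) and lower in ASC than in AFSC (log2 fold change -1.15, SE 0.276, adjusted p = 0.00133), though without AFSC replicate 3 this was -0.84.

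**Figure D2:**
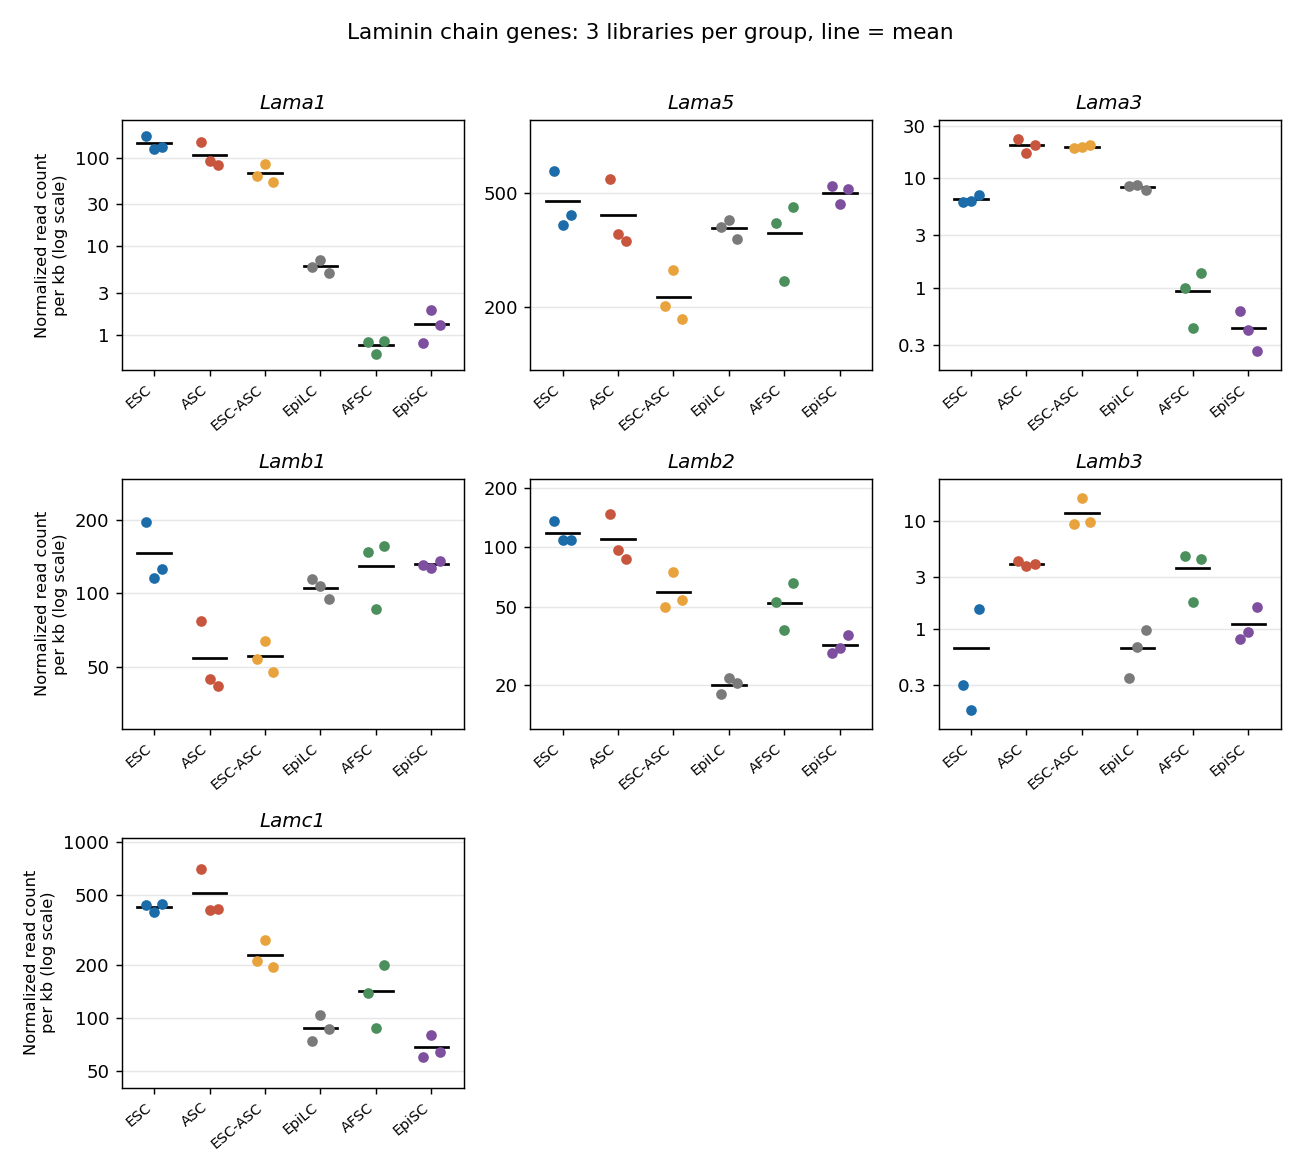
Normalized read count per kb (log axis, differing between panels) of 7 laminin genes in the 6 groups; points are the 3 libraries and the line is their mean. Lama1, Lamb2 and Lamc1 are lower in EpiLC, AFSC and EpiSC than in ESC, Lama5 has its lowest libraries in ESC-ASC, and Lamb1 is lowest in the 2 ABCL groups.

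Beta chains shifted between Lamb1 and Lamb2, of which Lamb1 is the usual embryonic partner. Lamb1 (chromosome 12:31265234-31329644, plus strand) was 196, 116 and 126 in ESC, 77, 44.6 and 41.9 in ASC and 54, 63.9 and 47.8 in ESC-ASC. Lamb1 in the other groups was 115, 107 and 94.6 in EpiLC, 147, 86 and 156 in AFSC and 131, 127 and 136 in EpiSC. Both ABCL groups lay below all other libraries. Lamb1 was lower in ASC than in ESC (log2 fold change -1.43, SE 0.243, adjusted p = 9.16e-05) and AFSC (log2 fold change -1.28, SE 0.242, adjusted p = 0.000154), and lower in ESC-ASC than in ESC (log2 fold change -1.41, SE 0.241, adjusted p = 5.7e-05). Lamb2, which joins laminins of synapses and vessels, ranged from 86.7 to 148 in ESC and ASC, from 49.8 to 74.6 in ESC-ASC, from 37.9 to 65.6 in AFSC, from 29.1 to 35.8 in EpiSC and from 18 to 21.7 in EpiLC. Lamb2 was lower than in ESC in EpiLC (log2 fold change -2.54, SE 0.23, adjusted p = 1.82e-08), AFSC (-1.17, and -0.99 without AFSC replicate 2) and EpiSC (-1.89). As shares of the summed beta level, Lamb1 held 54.5% in ESC, 32% in ASC and 43.9% in ESC-ASC, but 83.4%, 69.8% and 79.9% in EpiLC, AFSC and EpiSC. Lamb3, the beta chain of epithelial anchoring laminin, was 0.298, 0.176 and 1.52 in ESC, 4.24, 3.77 and 3.98 in ASC, 9.33, 16.3 and 9.73 in ESC-ASC, 0.349, 0.669 and 0.971 in EpiLC, 4.68, 1.75 and 4.39 in AFSC and 0.794, 0.933 and 1.59 in EpiSC. ESC-ASC exceeded all other libraries, and ESC, EpiLC and EpiSC overlapped at the low end. Lamb3 was the gene among the 41 that was higher in ESC-ASC than in ASC (log2 fold change 1.57, SE 0.348, adjusted p = 0.00107), and it reached 9.16% of the beta chain level there.

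Lamc1, the gamma chain common to most laminins, was highest in ESC and ASC. Lamc1 (chromosome 1:153218922-153332786, minus strand) was 438, 400 and 448 in ESC, 707, 413 and 418 in ASC and 212, 278 and 196 in ESC-ASC. Lamc1 in the other groups was 74.6, 104 and 86.7 in EpiLC, 140, 88.7 and 202 in AFSC and 60.6, 80.7 and 64.5 in EpiSC. ESC and ASC overlapped above every other library, and EpiSC and EpiLC overlapped at the bottom. Lamc1 was lower than in ESC in EpiLC (log2 fold change -2.27, SE 0.261, adjusted p = 5.01e-07), AFSC (-1.57) and EpiSC (-2.65), and higher in ASC than in AFSC (log2 fold change 1.81, SE 0.257, adjusted p = 6.23e-06). It was lower in ESC-ASC than in ASC by -1.16 on the log2 scale, which was -0.85 without ASC replicate 1.

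**Figure D3:**
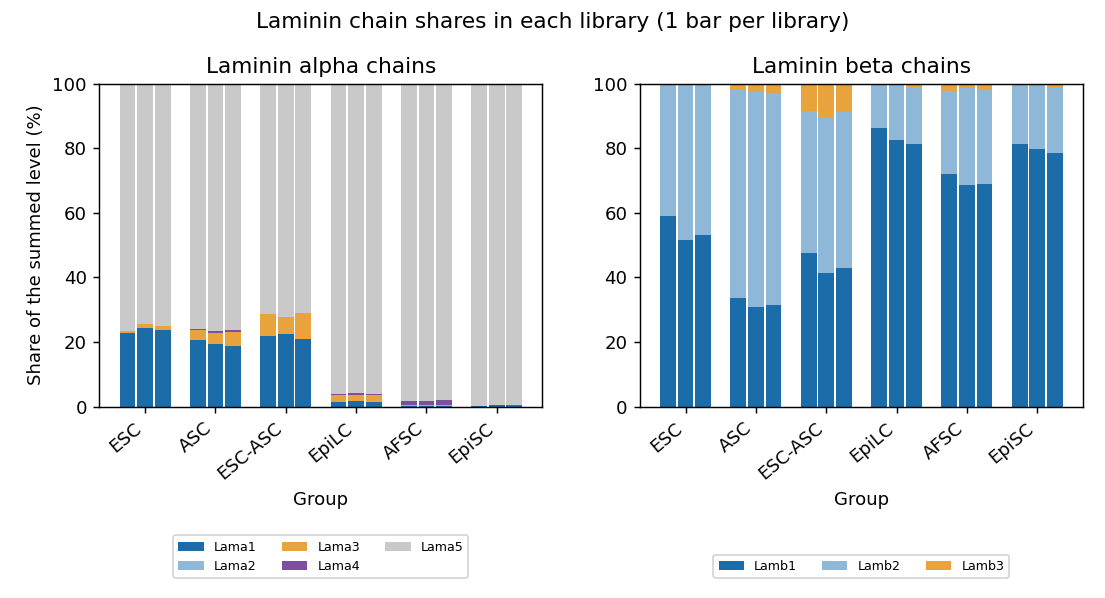
Share of the summed level (percent, levels per kb of exon) held by each laminin chain gene among alpha and among beta chains; 1 bar is 1 library, and chains that missed the count minimum are included in the sums. Lama5 fills most of every alpha bar, Lama1 averages 19.6% to 23.5% of it in ESC, ASC and ESC-ASC, and Lamb2 exceeds Lamb1 in the 3 ASC bars.

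The type IV chain Col4a1, by contrast, was lowest in ESC. Col4a1 (chromosome 8:11198423-11312826, minus strand), with Col4a2 the main basement membrane collagen, was 6.59, 7.02 and 7.92 in ESC, 72.7, 37.4 and 35.7 in ASC and 12.7, 23.9 and 15.2 in ESC-ASC. Col4a1 in the other groups was 13.2, 22 and 18.8 in EpiLC, 27.6, 19.7 and 40.2 in AFSC and 33.8, 43.3 and 33.6 in EpiSC. All 15 libraries of the 5 other groups lay above the 3 ESC libraries. Col4a1 was higher than in ESC in ASC (log2 fold change 2.72, SE 0.339, adjusted p = 3.12e-06), EpiSC (2.34), AFSC (2.02), EpiLC (1.33) and ESC-ASC (1.24, and 0.95 without ESC-ASC replicate 2). ESC-ASC was lower than ASC (log2 fold change -1.48, SE 0.295, adjusted p = 0.000434), and ASC and AFSC overlapped (log2 fold change 0.71, SE 0.296, adjusted p = 0.0435).

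Col4a2 (chromosome 8:11312805-11449287, plus strand) shared that order only in part. Col4a2 was 4.46, 4.04 and 6.91 in ESC, 62.4, 32.6 and 30 in ASC and 6.11, 14.3 and 9.34 in ESC-ASC. Col4a2 in the other groups was 2.79, 9.36 and 6.47 in EpiLC, 25.4, 12.9 and 22.9 in AFSC and 13.5, 20.1 and 15.6 in EpiSC. ASC lay above every other library, and ESC overlapped with EpiLC and ESC-ASC. Col4a2 was higher in ASC than in ESC (log2 fold change 2.97, SE 0.424, adjusted p = 1.58e-05), and lower in ESC-ASC than in ASC (log2 fold change -2.06, SE 0.369, adjusted p = 0.000163). It was higher in ASC than in AFSC (log2 fold change 1.01, SE 0.365, adjusted p = 0.0219), but this fell to 0.59 (adjusted p = 0.179) without ASC replicate 1 and to 0.77 (adjusted p = 0.101) without AFSC replicate 2. EpiLC and ESC did not separate (log2 fold change 0.28, SE 0.465, adjusted p = 0.628), unlike Col4a1. Per kb, the ratio of Col4a1 to Col4a2 was 1.15 to 1.19 in ASC, 1.09 to 1.76 in AFSC, 1.15 to 1.74 in ESC, 1.63 to 2.08 in ESC-ASC, 2.16 to 2.5 in EpiSC and 2.36 to 4.71 in EpiLC. Their exons overlap by 22 bp, and the counting did not use strand.

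Col4a5 and Col4a6, another head-to-head pair of type IV chains, were scarce. Col4a5 reached 0 to 1.17 in ESC, 0.599 to 0.873 in ESC-ASC and 0.658 to 1.43 in EpiLC, against 2.78 to 7.87 in ASC, 0.689 to 4.41 in AFSC and 4.33 to 7.62 in EpiSC. It was higher than in ESC in ASC (log2 fold change 3.12, SE 0.695, adjusted p = 0.00114) and EpiSC (log2 fold change 3.54, SE 0.671, adjusted p = 0.000143). Col4a6 stayed at or below 2.84 everywhere, and its higher groups were again ASC (2.97 against ESC) and EpiSC (3.09). In AFSC both were called higher than in ESC, but Col4a5 missed the threshold without ESC replicate 2 (adjusted p = 0.0619), and Col4a6 missed it without ESC replicate 2 (0.155) or 3 (0.068) or AFSC replicate 3 (0.263). Endoderm cells are strong producers of type IV collagen and Lama1 in embryos. The 14 endoderm markers summed to 56.8 to 88.4 in ESC, 55.7 to 66.3 in ASC, 47.8 to 50.4 in ESC-ASC, 31.6 to 35 in EpiLC, 95 to 122 in AFSC and 222 to 239 in EpiSC, with 1 to 5 of the 14 at 0 in a library. Srgn, a proteoglycan gene on that list, had a mean of 51.4 in ESC and 5.23 in ASC. Srgn made up most of the ESC sum. Without it, the other 13 summed to 15 to 24.8 in ESC, 49.3 to 63 in ASC and 46.5 to 49.7 in ESC-ASC. These sums were 28.4 to 34.2 in EpiLC, 95 to 121 in AFSC and 222 to 239 in EpiSC. ESC was thus lowest without Srgn, and EpiLC was lowest with all 14 markers. Of the 10 endoderm markers that passed the count minimum, 5 were higher and 2 lower in ASC than in ESC, and their part in the type IV levels was not tested. In EpiSC the sum was highest, with Foxa2 at a mean of 153, Sox17 at 34.6 and Gata6 at 26.5. There 4 to 5 of the 14 markers were at 0 in a library, and Hnf4a and Afp were at 0 in all. Lama1 had a mean of 1.36 in EpiSC, against 145 in ESC. The part of the endoderm markers in the EpiSC levels was not tested.

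Col18a1, the basement membrane collagen whose end releases endostatin, was the most abundant collagen in every group, at 57% of the summed collagen level in ESC, 51.6% in ASC, 56.1% in ESC-ASC, 75.2% in EpiLC, 48.5% in AFSC and 28.8% in EpiSC. Col18a1 (chromosome 10:77052178-77166548, minus strand) ranged from 140 to 181 in ESC, 352 to 630 in ASC, 126 to 181 in ESC-ASC, 396 to 499 in EpiLC, 224 to 382 in AFSC and 101 to 104 in EpiSC. It was higher than in ESC in ASC (log2 fold change 1.53, SE 0.217, adjusted p = 1.3e-05) and EpiLC (log2 fold change 1.47, SE 0.216, adjusted p = 1.04e-05), and not called in AFSC (log2 fold change 0.94, SE 0.214, adjusted p = 0.000842). The summed collagen level was 687 to 1200 in ASC, 534 to 647 in EpiLC, 439 to 728 in AFSC, 357 to 358 in EpiSC, 237 to 327 in ESC and 229 to 323 in ESC-ASC. Behind Col18a1, the next most abundant collagen differed by group: Col1a1 in ESC (7.9%), Col9a2 in ASC (11.4%), Col4a1 in ESC-ASC (6.49%), Col9a3 in EpiLC (7.33%), Col7a1 in AFSC (10.3%) and Col2a1 in EpiSC (17.3%).

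**Figure D4:**
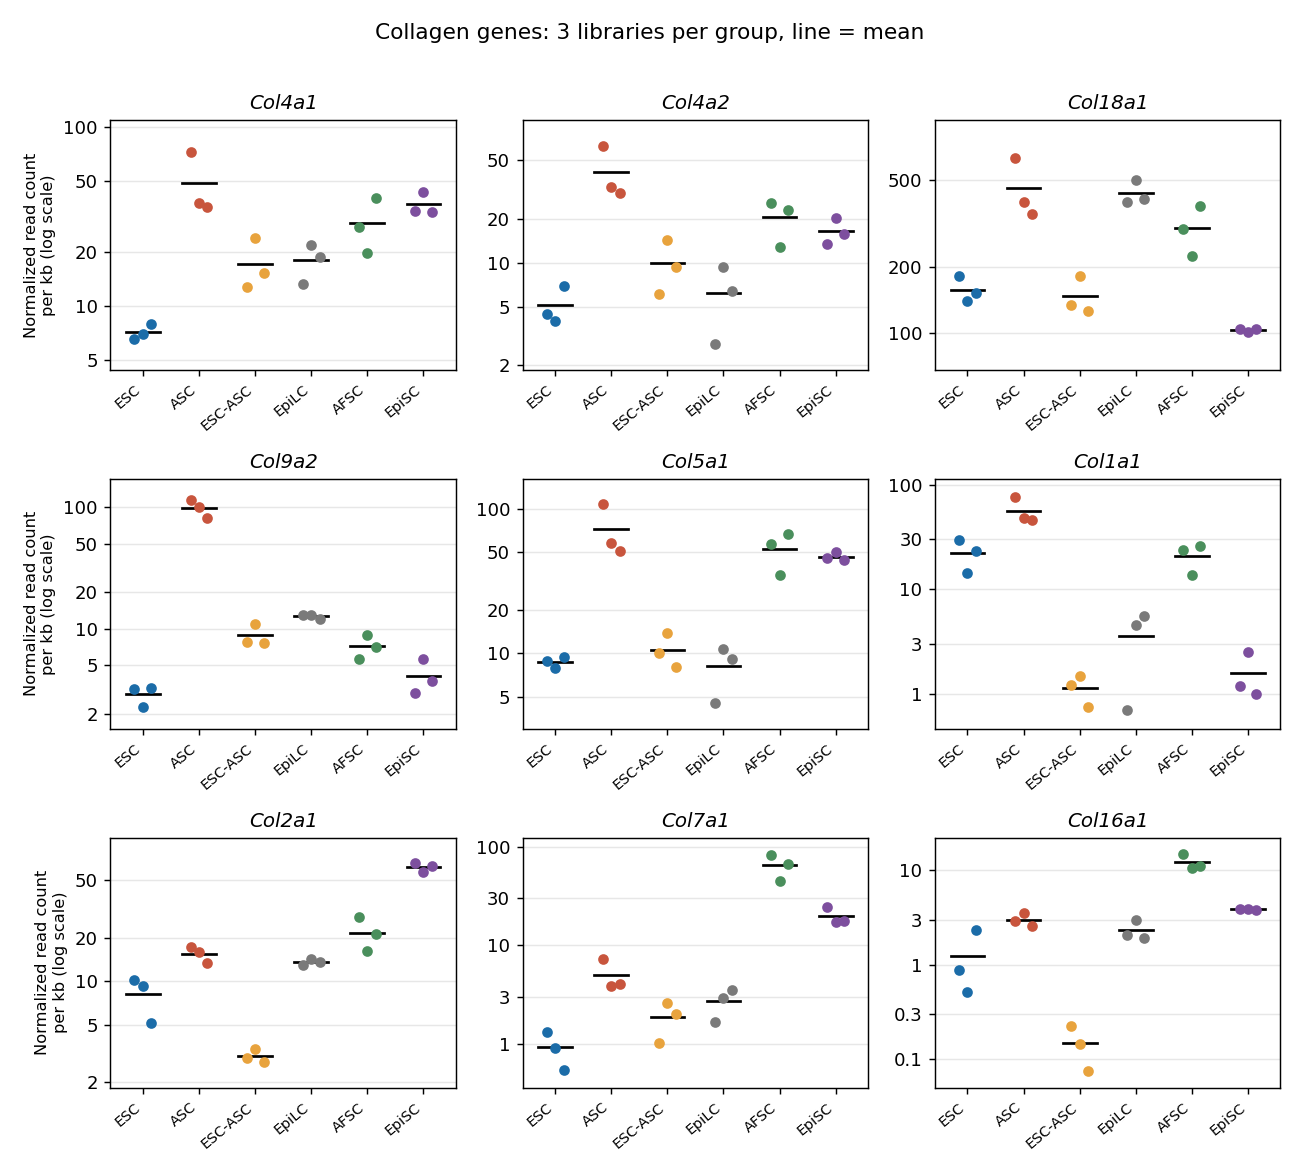
Normalized read count per kb (log axis, differing between panels) of 9 collagen genes in the 6 groups; points are the 3 libraries and the line is their mean. Col4a1 is lowest in ESC, Col9a2 highest in ASC, Col2a1 highest in EpiSC, Col7a1 and Col16a1 highest in AFSC, and Col1a1 low in ESC-ASC, EpiLC and EpiSC.

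Fibrillar collagens gave the largest contrasts between both ABCL cultures. Col1a1 (chromosome 11:94936224-94953042, plus strand), the main chain of type I collagen, was 29.4, 14.4 and 23.3 in ESC, 75.5, 48.1 and 45.6 in ASC and 1.23, 1.49 and 0.766 in ESC-ASC. Col1a1 in the other groups was 0.704, 4.58 and 5.54 in EpiLC, 23.6, 13.6 and 25.9 in AFSC and 1.2, 2.55 and 1.02 in EpiSC. ASC lay above every other library, ESC and AFSC overlapped, and ESC-ASC, EpiLC and EpiSC overlapped at the bottom. Col1a1 was higher in ASC than in AFSC (log2 fold change 1.40, SE 0.362, adjusted p = 0.00256) and lower in ESC-ASC than in ESC (log2 fold change -4.23, SE 0.465, adjusted p = 3.46e-07) and ASC (-5.57). Its partner Col1a2 did not share the high ASC level. Col1a2 was 8.4, 5.53 and 6.1 in ESC, 3.56, 2.17 and 1.59 in ASC, 0.0407, 0.354 and 0.0405 in ESC-ASC, 1.95, 4.63 and 3.7 in EpiLC, 7.69, 5.78 and 9.42 in AFSC and 0.739, 1.35 and 1.08 in EpiSC. ESC and AFSC overlapped at the top, and ESC-ASC was below all others. Col1a2 was lower in ASC than in ESC (log2 fold change -1.45, SE 0.379, adjusted p = 0.00397) and AFSC (-1.67), and lower in ESC-ASC than in ESC (log2 fold change -5.41, SE 0.503, adjusted p = 3.27e-08). Col1a1 and Col1a2 thus ranked ASC differently, first for Col1a1 and behind ESC and AFSC for Col1a2.

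Col3a1, a collagen of extensible tissue and of fibroblasts, was highest in ESC. Col3a1 was 17.9, 6.05 and 9.77 in ESC, 0.66, 0.317 and 0.782 in ASC, 0 in all 3 ESC-ASC libraries, 0.235, 0.451 and 1.53 in EpiLC, 2.33, 1.42 and 2.85 in AFSC and 0.267, 0 and 0.0972 in EpiSC. No other library reached the ESC range. With 226 counts in the ESC group and 0 in ESC-ASC, it was at least 200-fold higher in ESC, taking 3 counts over the group as the floor. ASC, with 16 counts, was at least 11.4-fold above ESC-ASC. EpiSC held 3 counts in all, giving a ratio of ESC to EpiSC of 98 with a 95% counting interval of 33.1 to 479, and of AFSC to EpiSC of 21.4 (6.95 to 107). Such floors and intervals cover counting error only. Col3a1 was also lower in ASC than in ESC (log2 fold change -4.22, SE 0.536, adjusted p = 6.96e-06) and in EpiLC than in ESC (log2 fold change -3.87, SE 0.514, adjusted p = 5.85e-06). The 10 fibroblast markers summed to 28.6 to 71.3 in ESC, 74.6 to 89.1 in ASC, 76.8 to 88.1 in ESC-ASC, 136 to 175 in EpiLC, 99.5 to 142 in AFSC and 37.5 to 44.4 in EpiSC. From 1 to 7 of them were at 0 in a library, with 6 to 7 at 0 in ESC-ASC. The sum was thus lower in ESC than in ASC, ESC-ASC, EpiLC and AFSC. Of the 5 fibroblast markers that passed the count minimum, 3 were higher and 1 lower in ASC than in ESC. Against ESC the counts were 2 and 2 in ESC-ASC, 4 and 0 in EpiLC, 2 and 1 in AFSC and 3 and 1 in EpiSC. The shares over all genes given above for these comparisons apply here too. Of the 10, Dcn and Lum had ESC means of 14.5 and 5.44. They stayed at or below 0.173 and 0.358 in every group besides, except Dcn in EpiLC at 64.6, and Lum was at 0 in ESC-ASC and EpiSC. The part of the fibroblast markers in the Col1a1, Col1a2 and Col3a1 levels was not tested.

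The type V chains, which set the width of fibrils, did not move together. Col5a1, the most abundant of them, was 50.5 to 107 in ASC, 34.9 to 66.4 in AFSC and 44.1 to 49.7 in EpiSC, and 4.49 to 13.8 over ESC, ESC-ASC and EpiLC. It was higher in ASC than in ESC (log2 fold change 3.02, SE 0.332, adjusted p = 7.66e-07) and lower in ESC-ASC than in ASC (log2 fold change -2.75, SE 0.308, adjusted p = 9.18e-07). Col5a2 was 2.87, 2.67 and 3.84 in ESC, 2.25, 1.08 and 1.72 in ASC, 0.105, 0.306 and 0.105 in ESC-ASC, 1.69, 3.41 and 3.01 in EpiLC, 9.13, 3.02 and 6.48 in AFSC and 0.137, 0.276 and 0.398 in EpiSC. AFSC, ESC and EpiLC overlapped at the top, and ESC-ASC and EpiSC overlapped far below. Col5a2 was lower in ESC-ASC than in ESC (log2 fold change -4.11, SE 0.522, adjusted p = 1.76e-06) and higher in AFSC than in EpiSC (log2 fold change 4.40, SE 0.516, adjusted p = 1.5e-06). Col5a3 split the groups as Lama1 did. Col5a3 was 8.39, 10.1 and 8.19 in ESC, 5.7, 5.49 and 4.83 in ASC, 6.68, 9.11 and 6.35 in ESC-ASC, 0.679, 1.56 and 1.1 in EpiLC, 0.791, 0.68 and 0.913 in AFSC and 0.385, 0.259 and 0.28 in EpiSC. ESC, ESC-ASC and ASC lay above all libraries of the other 3 groups. It was lower than in ESC in EpiLC (log2 fold change -2.94, SE 0.277, adjusted p = 3.28e-08), AFSC (-3.45) and EpiSC (-4.83).

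Of the cartilage-type fibrillar collagens, Col2a1, the main collagen of cartilage and notochord, was highest in EpiSC. Col2a1 was 10.2, 9.31 and 5.2 in ESC, 17.3, 15.9 and 13.5 in ASC, 2.95, 3.42 and 2.76 in ESC-ASC, 12.9, 14.3 and 13.6 in EpiLC, 27.8, 16.2 and 21.4 in AFSC and 66, 57.3 and 62.5 in EpiSC. EpiSC exceeded, and ESC-ASC fell below, every library of the other groups. Col2a1 was higher in EpiSC than in ESC (log2 fold change 2.93, SE 0.221, adjusted p = 8.88e-10), and lower in AFSC than in EpiSC (log2 fold change -1.49, SE 0.198, adjusted p = 6.5e-06). The 6 mesoderm markers summed to 473 to 490 in EpiSC and at most 149 elsewhere, with 1 to 3 of the 6 at 0 in EpiSC libraries, and their part in this result was not tested. Col11a2, a chain of cartilage fibrils, was 1.44, 0.682 and 0.653 in ESC, 0.632, 0.76 and 1.12 in ASC, 0.444, 1.07 and 0.662 in ESC-ASC, 2.03, 1.81 and 1.72 in EpiLC, 5.52, 3.22 and 4.25 in AFSC and 5.96, 3.74 and 6.57 in EpiSC. AFSC and EpiSC overlapped above all others, and ESC, ASC and ESC-ASC overlapped. Col11a2 was lower in ASC than in AFSC (log2 fold change -2.36, SE 0.388, adjusted p = 3.29e-05). Col11a1, its partner chain, ran the other way. Col11a1 was 3.55, 2.92 and 3.41 in ESC, 3.13, 1.22 and 0.516 in ASC, 0.476, 0.652 and 0.513 in ESC-ASC, 1.36, 0.902 and 1.01 in EpiLC, 0.528, 0.363 and 0.488 in AFSC and 0 in all 3 EpiSC libraries. ESC and ASC overlapped through ASC replicate 1 alone, and EpiSC was at 0. With 94 counts in ESC against 0, it was at least 40.8-fold higher in ESC than in EpiSC, and with 15 counts in AFSC at least 5.73-fold higher than in EpiSC. Against ESC it was lower in AFSC (log2 fold change -2.81, SE 0.497, adjusted p = 0.000102) and in ASC (log2 fold change -1.03, SE 0.402, adjusted p = 0.0419). The ASC call missed the threshold in 10 of the 18 runs that left out a library, among them those without ESC replicate 1, 2 or 3 (adjusted p = 0.0783, 0.0629 and 0.0962) and ASC replicate 2 or 3 (0.132 and 0.156). The rest of those runs left out an ESC-ASC replicate (adjusted p = 0.0515, 0.0559 and 0.0524) or EpiLC replicate 1 or 3 (0.0509 and 0.0515), and DESeq2 gave an adjusted p of 0.0695. Col27a1, expressed in growing cartilage, was 0.756, 0.447 and 0.857 in ESC, 8.53, 6.86 and 7.08 in ASC, 1.59, 2.25 and 2.43 in ESC-ASC, 2.31, 3.19 and 2.47 in EpiLC, 10.8, 4.71 and 5.81 in AFSC and 4.03, 4.47 and 5.13 in EpiSC. ESC lay below every other library. Col27a1 was higher in AFSC than in ESC (log2 fold change 3.36, SE 0.356, adjusted p = 1.23e-07) and likewise in ASC (3.42).

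The largest rise from ESC to ASC, among genes with more than 3 counts in every group, was in a fibril-associated collagen. Col9a2 (chromosome 4:121039385-121055322, plus strand), a type IX chain of cartilage fibrils, was 3.18, 2.26 and 3.24 in ESC, 114, 100 and 81.9 in ASC and 7.84, 11 and 7.63 in ESC-ASC. Col9a2 in the other groups was 13.1, 13.1 and 12.1 in EpiLC, 5.66, 8.98 and 7.03 in AFSC and 2.97, 5.7 and 3.7 in EpiSC. The lowest ASC library, at 81.9, lay far above the highest library of any other group, at 13.1. Col9a2 was higher in ASC than in ESC (log2 fold change 5.07, SE 0.273, adjusted p = 7.8e-11) and AFSC (log2 fold change 3.73, SE 0.233, adjusted p = 1.06e-10), and higher in ESC-ASC than in ESC (log2 fold change 1.60, SE 0.306, adjusted p = 0.000174), but ESC-ASC stayed below ASC (log2 fold change -3.47, SE 0.211, adjusted p = 4.8e-10). EpiLC also exceeded ESC (2.15). Col9a3, another chain of the same trimer, did not follow it. Col9a3 was 9.2, 1.81 and 5.21 in ESC, 17.4, 14.6 and 9.96 in ASC, 13.9, 20.2 and 12.4 in ESC-ASC, 60.6, 27.6 and 35.3 in EpiLC, 77.2, 6.61 and 11.8 in AFSC and 20.1, 16.5 and 18.6 in EpiSC. EpiLC lay above every library but AFSC replicate 1, whose value stood far from its 2 replicates. It was higher in EpiLC than in ESC (log2 fold change 3.04, SE 0.739, adjusted p = 0.00208) and not called in ASC (log2 fold change 1.46, SE 0.788, adjusted p = 0.133). Exons of Col9a3 overlap those of Tcfl5 over 234 bp, 6.07% of its length, so some of its reads could belong to Tcfl5.

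Col12a1, Col16a1, Col20a1 and Col22a1, collagens found at fibril surfaces and tissue junctions, reached at most 14.8. Col12a1 was 0.776, 0.688 and 0.659 in ESC, 2.34, 1.09 and 0.864 in ASC, 0.0332, 0 and 0.165 in ESC-ASC, 0.152, 0.174 and 0 in EpiLC, 0.354, 0.836 and 0.816 in AFSC and 0.172, 0.116 and 0.0627 in EpiSC. ASC lay above all others, and ESC-ASC, EpiLC and EpiSC overlapped near 0. Col12a1 was lower in ESC-ASC than in ASC (log2 fold change -4.29, SE 0.613, adjusted p = 1.4e-05). Col16a1 was 0.875, 0.517 and 2.31 in ESC, 2.88, 3.54 and 2.6 in ASC, 0.225, 0.145 and 0.0745 in ESC-ASC, 2.05, 3.01 and 1.9 in EpiLC, 14.8, 10.6 and 11.2 in AFSC and 3.89, 3.92 and 3.82 in EpiSC. AFSC was above and ESC-ASC below every other library. Col16a1 was lower in ASC than in AFSC (log2 fold change -2.03, SE 0.292, adjusted p = 7.28e-06) and in ESC-ASC than in ASC (log2 fold change -4.19, SE 0.468, adjusted p = 7.46e-07). Col20a1 was 9.86, 5.27 and 6.39 in ESC, 10, 6.19 and 5.23 in ASC, 2.89, 3.73 and 2.64 in ESC-ASC, 0.827, 0.211 and 0.255 in EpiLC, 1.28, 0 and 0 in AFSC and 0.313, 0.631 and 0.911 in EpiSC. ESC and ASC overlapped at the top, ESC-ASC followed alone, and EpiLC, EpiSC and AFSC overlapped. Col20a1 was higher in ASC than in AFSC (log2 fold change 4.13, SE 0.642, adjusted p = 1.76e-05) and lower than in ESC in AFSC (-4.11) and EpiLC (-3.99). Col22a1 was 0.642, 0.379 and 0.242 in ESC, 5.98, 4.29 and 3.81 in ASC, 1.87, 2.65 and 2.35 in ESC-ASC, 0.628, 1.44 and 1.28 in EpiLC, 4.83, 2.39 and 4.84 in AFSC and 5.99, 4.5 and 5.08 in EpiSC. EpiSC, ASC and AFSC overlapped above ESC and EpiLC, which overlapped each other. Col22a1 was higher than in ESC in EpiSC (log2 fold change 3.68, SE 0.431, adjusted p = 4.22e-07) and in ESC-ASC (log2 fold change 2.51, SE 0.455, adjusted p = 0.000102).

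Type VI collagen, a beaded filament that links cells with the matrix, was split by chain. Col6a1 and Col6a2, the chains every trimer needs, were highest in AFSC: Col6a1 ranged from 7.07 to 10.2 there, from 3.45 to 4.08 in ESC and from 0 to 0.462 in ESC-ASC. Col6a2 was 0.709, 0.839 and 1.47 in ESC, 0.907, 0.748 and 0.79 in ASC, 0.0607, 0.528 and 0.242 in ESC-ASC, 0, 1.49 and 0.9 in EpiLC, 2.75, 2.5 and 4.48 in AFSC and 0.63, 0.847 and 1.26 in EpiSC. AFSC lay above all other libraries, and ESC, ASC, EpiLC and EpiSC overlapped. Both were lower in ASC than in AFSC, in Col6a2 with a log2 fold change -2.01, SE 0.555, adjusted p = 0.00388. Col6a3 was 1.15, 2.43 and 1.59 in ESC, 1.53, 0.868 and 0.367 in ASC, 0.169, 0.0408 and 0.042 in ESC-ASC, 0.386, 1.63 and 1.79 in EpiLC, 0.113, 0.677 and 0.693 in AFSC and 0.329, 0.884 and 0.559 in EpiSC. ESC was highest and overlapped with EpiLC and ASC, and ESC-ASC had the lowest mean. Col6a3 was lower in ESC-ASC than in ESC (log2 fold change -4.28, SE 0.694, adjusted p = 3.11e-05).

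The remaining type VI chains were absent or nearly so in ESC. Col6a4 was 0 in all 3 ESC libraries, 1.52, 1.22 and 0.515 in ASC, 1.13, 1.2 and 1.53 in ESC-ASC, 2.17, 2.18 and 2.01 in EpiLC, 0.158, 0.272 and 0.608 in AFSC and 0 in all 3 EpiSC libraries. Its EpiLC libraries exceeded all others, and 0 counts were found in ESC and EpiSC. Relative to ESC it was at least 13.6-fold higher in EpiLC, 8.28-fold in ESC-ASC, 7-fold in ASC and 2.35-fold in AFSC, and at least 3.05-fold higher in AFSC than in EpiSC. Col6a5 was 0, 0.124 and 0 in ESC, 1.26, 0.992 and 0.699 in ASC, 0.322, 0.311 and 0.107 in ESC-ASC, 2.7, 2.35 and 1.36 in EpiLC, 12.4, 6.51 and 8.14 in AFSC and 1.25, 0.561 and 0.507 in EpiSC. AFSC stood above EpiLC, and EpiLC above the other groups. ESC held 1 count in all, which gave ratios to ESC of 188 in AFSC (95% counting interval 33.4 to 7470), 45.6 in EpiLC (7.87 to 1830), 21 in ASC (3.45 to 861) and 15.4 in EpiSC (2.46 to 637). Col6a5 was lower in ASC than in AFSC (log2 fold change -3.20, SE 0.372, adjusted p = 5.09e-07).

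Col7a1 (chromosome 9:108953586-108984875, plus strand), the collagen of anchoring fibrils beneath the skin's basement membrane, was the most marked AFSC collagen by level. Col7a1 was 1.34, 0.905 and 0.542 in ESC, 7.24, 3.84 and 4.05 in ASC, 1.03, 2.61 and 2 in ESC-ASC, 1.68, 2.92 and 3.54 in EpiLC, 82.3, 44.8 and 67.4 in AFSC and 24.4, 17.3 and 17.8 in EpiSC. AFSC, EpiSC and ASC were each separate from all other groups, in falling order. Col7a1 was higher than in ESC in AFSC (log2 fold change 6.20, SE 0.409, adjusted p = 1.53e-10) and EpiSC (log2 fold change 4.47, SE 0.419, adjusted p = 1.97e-08), higher in AFSC than in EpiSC (1.73), and lower in ASC than in AFSC (log2 fold change -3.71, SE 0.317, adjusted p = 8.77e-09). Col8a2, a short-chain collagen of vessel and cornea membranes, was 0 in all 3 ESC libraries, 0.721, 0.925 and 1.22 in ASC, 0.338, 0.435 and 0.224 in ESC-ASC, 0.257, 2.56 and 1.67 in EpiLC, 1.5, 1.29 and 5.77 in AFSC and 0.585, 1.57 and 2.13 in EpiSC. ESC had 0 counts and every other library some. It was at least 10.3-fold higher than ESC in AFSC, 5.41-fold in EpiLC, 5.12-fold in EpiSC and 3.23-fold in ASC. The ASC call missed the threshold without ESC replicate 2 (adjusted p = 0.0703) or 3 (0.0719) or ASC replicate 3 (0.0596).

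Transmembrane collagens and Col26a1 were low but sharply divided. Col13a1, a collagen of focal adhesions and the neuromuscular junction, was 5.13, 4.04 and 2.42 in ESC, 10.3, 8.12 and 8.57 in ASC, 6.7, 6.26 and 7.75 in ESC-ASC, 1.76, 3.07 and 1.86 in EpiLC, 0.292, 0.754 and 0.45 in AFSC and 1.42, 2.11 and 1.45 in EpiSC. ASC, then ESC-ASC, lay above the rest, and AFSC below. Col13a1 was lower in AFSC than in EpiSC (log2 fold change -1.68, SE 0.507, adjusted p = 0.013), a call that missed the threshold without AFSC replicate 3 (adjusted p = 0.0519) or EpiSC replicate 2 (0.083), and higher in ASC than in AFSC (log2 fold change 4.06, SE 0.394, adjusted p = 4.67e-08). Col17a1, the collagen of hemidesmosomes, was 2.73, 1.82 and 1.94 in ESC, 7.11, 4.5 and 3.42 in ASC, 7.37, 8.05 and 5.93 in ESC-ASC, 3.21, 2.15 and 2.04 in EpiLC, 0.234, 0 and 0.359 in AFSC and 0.455, 0.153 and 0.166 in EpiSC. Both ABCL groups overlapped at the top, and AFSC and EpiSC overlapped at the bottom. AFSC held 3 counts, so that the ratio of ASC to AFSC was 24.8 (95% counting interval 8.19 to 123) and that of ESC to AFSC 10.2 (3.15 to 52.7). Col17a1 was higher in ESC-ASC than in ESC (log2 fold change 1.74, SE 0.331, adjusted p = 0.000167). Col23a1 was 0.343, 0.203 and 0.389 in ESC, 1.5, 2.35 and 1.72 in ASC, 0.264, 0.341 and 0.351 in ESC-ASC, 0.403, 0.154 and 0.56 in EpiLC, 0.47, 0.807 and 0.542 in AFSC and 5.26, 3.23 and 6.99 in EpiSC. EpiSC, then ASC, exceeded every other group. Col23a1 was higher in EpiSC than in ESC (log2 fold change 3.96, SE 0.479, adjusted p = 6.5e-07) and lower in AFSC than in EpiSC (log2 fold change -3.02, SE 0.406, adjusted p = 7.91e-06). Col26a1 was 1.44, 0.854 and 0.409 in ESC, 8.58, 10.7 and 10.9 in ASC, 12.2, 12.2 and 12.5 in ESC-ASC, 3.39, 3.14 and 2.88 in EpiLC, 0, 0.425 and 0 in AFSC and 4.98, 6.68 and 6.89 in EpiSC. ESC-ASC, ASC, EpiSC and EpiLC were each separate from all other groups in falling order, and ESC and AFSC overlapped. AFSC again held 3 counts, and the ratio to AFSC was 70.4 in ASC (23.8 to 344), 44.2 in EpiSC (14.9 to 217) and 5.68 in ESC (1.61 to 30.6). Against ESC, Col26a1 was higher in ESC-ASC (log2 fold change 3.87, SE 0.348, adjusted p = 2.11e-08) and ASC (3.56).

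Taking the comparisons in turn, ASC against ESC asks how the ABCL cells derived from primed parents differ from naive cells. All 4 measured type IV chains, all 3 measured transmembrane collagens and 3 of 6 fibril-associated collagens were higher in ASC, and none of those was lower. Among 10 fibrillar collagens 3 were higher and 3 lower (Col1a2, Col3a1 and Col11a1), and Lamb1 was the only lower laminin beside 3 higher chains, Lama3, Lama4 and Lamb3. Over all genes 18.5% were higher and 7.26% lower. The median log2 difference of the 41 genes was 1.25, against 0.02 over all genes. ASC and ESC libraries did not overlap for 25 of the 26 called genes, as for 97.5% of all genes called in that comparison. Besides Col11a1 and Col8a2, the calls lost on leaving out 1 library were Col16a1 (adjusted p = 0.0553 without ESC replicate 1, 0.12 without ESC replicate 2 and 0.061 without ASC replicate 2), Col13a1 (0.98 on the log2 scale without ESC replicate 3) and Col17a1 (0.89 without ASC replicate 1).

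ASC against AFSC compares lines selected as surviving colonies in ABCL medium with primed cells of the kind they came from, kept in Activin A and FGF2. Of the 41 genes, 16 were higher and 12 lower in ASC (over all genes 22.7% higher and 16.7% lower, and 39.4% called). Higher genes included Lama1, Lama3, Lamb2, Lamc1 and all 3 transmembrane collagens. Lower genes included Col7a1, Col16a1, Lamb1, Lama4 and 3 of 5 type VI chains. The median was 0.71, and the 2 groups did not overlap for 26 of 28 (96.7% of all genes called). Beside Col4a2 and Lama4, the calls lost on leaving out 1 library were Lamb2 (0.79 on the log2 scale without ASC replicate 1 and 0.88 without AFSC replicate 2), Col3a1, Col6a4, Col8a2 and Col11a1. Col3a1 missed the threshold without ASC replicate 2 (adjusted p = 0.0518) or AFSC replicate 3 (0.0509), Col11a1 without ASC replicate 1 (0.096), and Col6a4 without ASC replicate 1 or 2 or AFSC replicate 1 or 2 (0.0961, 0.057, 0.0753 and 0.0711). Col8a2 missed it in 9 such runs (adjusted p = 0.0507 to 0.523), those without any ASC or ESC-ASC replicate, EpiLC replicate 3, AFSC replicate 3 or EpiSC replicate 2.

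ESC-ASC against ESC is the corresponding comparison with naive cells as the parent, though possibly across lines. Over all genes 19.3% were higher and 17.1% lower, and 36.4% were called, against 25 of the 41. Here 6 of 10 fibrillar collagens were lower and 1 higher, 3 of 5 type VI chains were lower and 1 higher, and 3 of 4 laminin alpha chains were lower while Lama3 was higher. The median was -0.28, and none of the 25 called genes overlapped between the groups (98.5% of all called genes did not). Calls on Col20a1, Lama4 and Col6a2 rested on single libraries as well. Col20a1 missed the threshold without ESC replicate 1 (adjusted p = 0.077) or ESC-ASC replicate 1 (0.0504) or 3 (0.0597), Lama4 without ESC replicate 2 (0.104) or ESC-ASC replicate 1 (0.0725), and Col6a2 without ESC replicate 3 (0.172) or ESC-ASC replicate 1 (0.0967) or 3 (0.0669). With ESC-ASC counts thinned to the depth of the other groups, 26 of the 41 genes were called, against 25.

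Both kinds of ASC could be set side by side, since ESC-ASC and ASC share a medium. ESC-ASC was lower for 25 of the 41 genes and higher for Lamb3 (over all genes 16.5% lower and 8.04% higher, and 24.5% called). The 25 comprised 8 of 10 fibrillar collagens, all 4 type IV chains, 5 of 6 fibril-associated collagens, 3 of 5 type VI chains, Col7a1, Col18a1, 1 transmembrane collagen, Lama4 and Lamc1. The median was -1.49, and 25 of the 26 did not overlap (97.7% of all genes called). On leaving out ASC replicate 1, Lamc1, Col20a1 (-0.87), Col11a1 (-0.66) and Col22a1 (-0.81) fell short of 2-fold or of the threshold. Col20a1 also missed it without ESC-ASC replicate 1 (adjusted p = 0.0509) or 3 (0.0597), and Col22a1 was at -0.89 without ESC-ASC replicate 1. With only replicates 2 and 3 of every group, 20 genes remained called, 19 of them lower, and all 20 were among the 26.

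**Figure D5:**
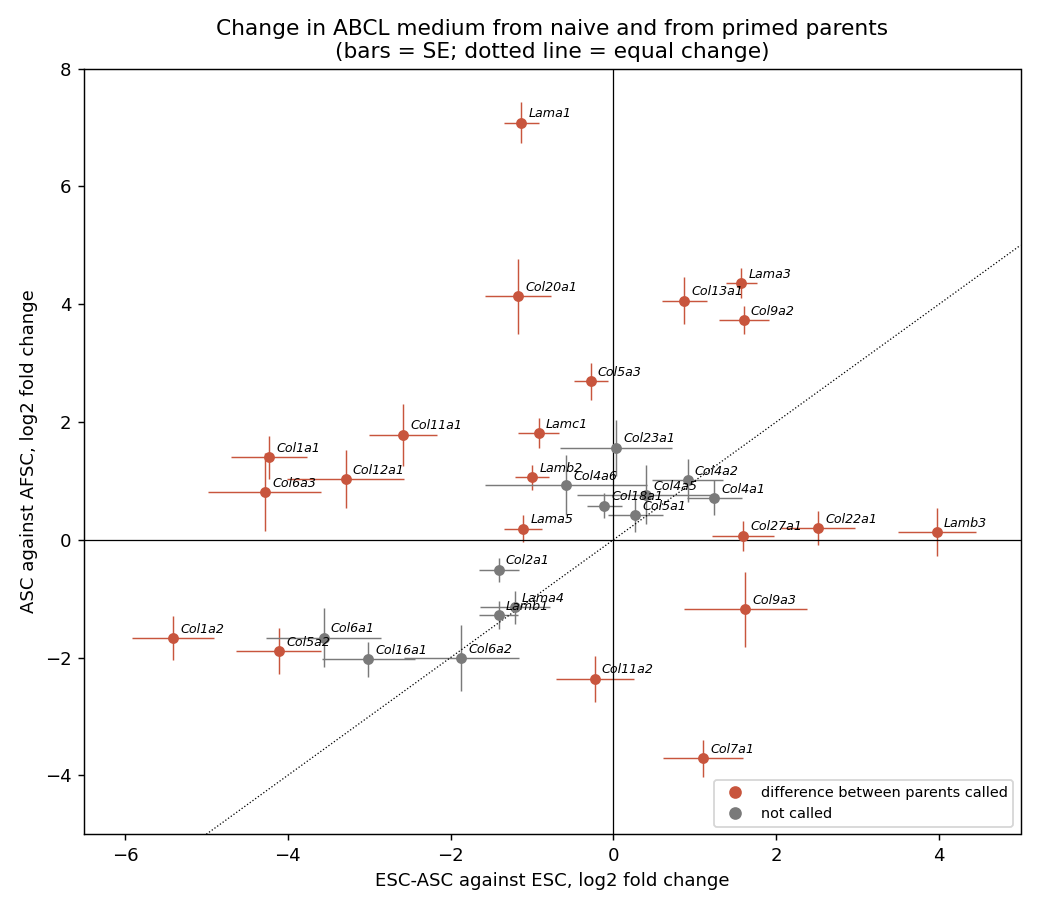
Log2 fold change of ESC-ASC against ESC (x axis) and of ASC against AFSC (y axis) for 34 genes with more than 3 counts in each of these 4 groups; each point is a gene, bars are standard errors, red points passed the test of the difference between both changes and grey points did not, and the dotted line marks equal change. Lama1 and Col1a1 have negative x and positive y values, Col9a2 and Lama3 are positive on both axes, and Col7a1 lies far below 0 on the y axis.

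The 2 comparisons of ABCL cells with their kind of parent, AFSC or ESC, share no libraries. Called in both, 5 genes were higher (Col17a1, Col26a1, Col6a4, Col9a2 and Lama3) and 8 lower (Col16a1, Col1a2, Col3a1, Col5a2, Col6a1, Col6a2, Lama4 and Lamb1), against 6.23% and 3.3% of all genes tested. In 4 genes, Col11a1, Col1a1, Col20a1 and Lama1, the calls had opposite directions, higher from AFSC and lower from ESC (5.51% of all genes). A further 11 were called only from AFSC, 8 only from ESC and 5 in neither, against 20.4%, 17.4% and 43.2% of all genes. A test of the difference between the 2 changes called 28 of 41 genes (over all genes 45.2%), 19 with the greater value from AFSC (24.4%) and 9 with the greater value from ESC (20.8%). The change in Lama1 differed (log2 fold change 8.21, SE 0.418, adjusted p = 6.49e-12), as did that in Col1a1 (5.63 on the log2 scale). Among genes with the greater value from ESC, Col7a1 differed by -4.80 and Lamb3 by -3.85. All 6 naive markers differed in the same direction as Lama1, with a median of 10.036, and their part in the result was not tested.

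EpiLC, AFSC and EpiSC were each set against the naive ESC, and these comparisons share the ESC libraries. By the study's account, AFSC were derived directly from blastocysts, and EpiSC as a cell type come from postimplantation epiblast. AFSC against ESC thus compares separately derived cells in different media, and not a transition of these ESC. EpiLC had a median of -0.09, with Lamc1, Lama1 and Lamb2 lower and no laminin chain higher, and with 3 of 6 fibril-associated and 2 of 5 type VI collagens higher. AFSC had a median of 0.97, with all 4 type IV chains, 4 of 5 type VI chains and 4 of 6 fibril-associated collagens higher. EpiSC had a median of -0.16, with all 4 type IV chains higher, 6 of 10 fibrillar collagens lower and 4 higher, and Lama1, Lama3, Lama4, Lamb2 and Lamc1 lower and no laminin chain higher. The groups did not overlap for 21 of 22, 29 of 33 and 33 of 33 called genes, against 97.1%, 95.7% and 97.5% of all genes called. Several of these calls rested on single libraries. In EpiLC, Col7a1 missed the threshold without ESC replicate 3 (adjusted p = 0.0575), and Col22a1 without ESC replicate 2 (0.0581) or 3 (0.101) or EpiLC replicate 2 (0.0832). Col11a2 missed it in 9 of the 18 runs that left out a library, with adjusted p from 0.0514 to 0.162, among them those without ESC replicate 2 or 3, ASC replicate 2, ESC-ASC replicate 3, any EpiLC replicate, AFSC replicate 3 or EpiSC replicate 1. In AFSC, Col6a1 missed the threshold without any ESC replicate or without AFSC replicate 2 or 3 (adjusted p = 0.0551 to 0.0979), Col6a2 without ESC replicate 2 (0.0625) or AFSC replicate 3 (0.0792), Col6a3 without ESC replicate 2 (0.0949) or AFSC replicate 1 (0.0599), and Col9a3 without AFSC replicate 1 (0.125). In EpiSC, Col6a3 missed it without ESC replicate 2 (0.145) or EpiSC replicate 1 (0.0902) or 3 (0.0753), and Col13a1 was at -0.94 on the log2 scale without ESC replicate 1. Col9a3 in EpiSC missed it in 10 runs (adjusted p = 0.0502 to 0.166), those without ESC replicate 2 or 3, any ASC or EpiSC replicate, ESC-ASC replicate 1 or EpiLC replicate 3.

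AFSC and EpiSC, both primed, still differed in 22 of the 41 genes, of which 18 were higher in AFSC and 4 lower (over all genes 12.6% higher and 8.19% lower, and 20.8% called). Of the 18, 5 were fibrillar collagens and 4 type VI chains, Lama3, Lama4, Lamb3 and Lamc1 were also higher, and none of the 4 type IV chains was called. The lower genes were Col2a1, Col13a1, Col23a1 and Col26a1. The median was 0.79, and 21 of the 22 did not overlap (95.8% of all genes called). With replicates 2 and 3 alone, Lamb3 missed the threshold (adjusted p = 0.072). Lamc1 fell short of 2-fold without AFSC replicate 3 (0.75) or EpiSC replicate 1 (0.99). Col6a2 missed the threshold without AFSC replicate 3 (adjusted p = 0.0649), Col12a1 without EpiSC replicate 3 (0.0515), and Lama3 without AFSC replicate 1 (0.0567) or 3 (0.317) or EpiSC replicate 2 (0.0705) or 3 (0.146).

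Partners of these chains were read from 4 lists of genes that are not collagens or laminins. Over all genes the shares higher and lower were 18.5% and 7.26% in ASC against ESC, 22.7% and 16.7% in ASC against AFSC, 8.04% and 16.5% in ESC-ASC against ASC, and 12.6% and 8.19% in AFSC against EpiSC. Against ESC they were 19.3% and 17.1% in ESC-ASC, 18% and 15.9% in EpiLC, 19.9% and 19.6% in AFSC, and 19% and 22% in EpiSC. Of 18 further basement membrane genes, 8 were higher and 0 lower in ASC than in ESC, 7 and 6 in ASC than in AFSC, and 0 and 8 in ESC-ASC than in ASC. In the same order of comparisons, 15 were higher and 3 lower, 8 and 4, and 1 and 9 of 29 genes for collagen modification, secretion and cross-linking. Against ESC, the basement membrane list had 5 higher and 3 lower in ESC-ASC, 4 and 8 in EpiLC, 9 and 3 in AFSC and 7 and 7 in EpiSC, and the collagen list 10 and 5, 9 and 8, 11 and 8, and 9 and 7. Between AFSC and EpiSC the counts were 7 and 4, and 9 and 2. Nid1, the nidogen that links laminin with collagen IV, was likewise higher in every ESC, ASC and ESC-ASC library than in any other: its mean was 380 in ESC, 306 in ASC and 183 in ESC-ASC against 6.11 in EpiLC, 9.49 in AFSC and 4.74 in EpiSC (log2 fold change 4.97, SE 0.298, adjusted p = 6.49e-11 for ASC against AFSC). Pxdn, the peroxidase that cross-links collagen IV, had means of 0.801 in ESC, 31.2 in ASC, 14.3 in ESC-ASC, 28 in EpiLC, 45.6 in AFSC and 93.2 in EpiSC, and was higher in ASC than in ESC (log2 fold change 5.19, SE 0.409, adjusted p = 1.04e-08). Hspg2, which encodes perlecan, was lower in ESC-ASC than in ASC (means 119 and 416, log2 fold change -1.80, SE 0.246, adjusted p = 8.75e-06). Loxl2, a lysyl oxidase that cross-links collagen, was higher in ASC than in ESC (84 against 3.7, log2 fold change 4.56, SE 0.324, adjusted p = 2.76e-09) and higher in ESC-ASC than in ESC (3.60). The prolyl hydroxylase P4ha2 was likewise higher in ESC-ASC than in ESC (log2 fold change 3.73, SE 0.258, adjusted p = 6.85e-10). Fkbp10, a chaperone of procollagen, was higher in AFSC than in ESC (154 against 4.42, log2 fold change 5.05, SE 0.295, adjusted p = 2.65e-11).

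Among 7 laminin receptors, 3 were higher and 0 lower in ASC than in ESC, 3 and 2 in ASC than in AFSC, 0 and 0 in ESC-ASC than in ESC, and 0 and 2 in ESC-ASC than in ASC. Against ESC, 1 was higher and 3 lower in EpiLC, 2 and 1 in AFSC and 1 and 3 in EpiSC, and 3 were higher and 0 lower in AFSC than in EpiSC. The shares over all genes given for the partner lists apply to the receptor counts too, and in lists of 7 genes or fewer these counts are a description. Itga7 and Dag1, which encode a laminin-binding integrin subunit and dystroglycan, were higher in ASC than in AFSC (3.22 and 1.53) and lower in ESC-ASC than in ASC (-2.22 and -1.76). Itga3, a receptor subunit for Lama5-containing laminins, had a mean of 446 in AFSC against 30.5 in ESC (log2 fold change 3.88, SE 0.245, adjusted p = 7.82e-11) and 57.9 in ASC (-2.97 for ASC against AFSC). Of 6 collagen receptors, 4 passed the count minimum. Among these, Ddr1 was highest in AFSC (340 against 40.5 in ESC, log2 fold change 3.08, SE 0.164, adjusted p = 7.01e-12) and Ddr2 in ESC (11.7, and lower in ESC-ASC, -4.96). Per comparison, 1 collagen receptor was higher and 1 lower in ASC than in ESC, and 2 were higher and 2 lower in ASC than in AFSC. In ESC-ASC, 0 were higher and 1 lower than in ESC, and 0 higher and 1 lower than in ASC. In EpiLC 1 was higher and 1 lower than in ESC, in AFSC and EpiSC 2 were higher and 1 lower, and 1 was higher and 0 lower in AFSC than in EpiSC.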

How the data were processed

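Polyadenylated RNA was made into 18 directional libraries and sequenced on HiSeq4000. The authors deposited raw fragment counts per Ensembl gene (release 86, GRCm38) from featureCounts 1.5.0-p1. Per the file headers, fragments counted only where both mates mapped on 1 chromosome and at least 10 bp lay in an exon, strand was ignored, and fragments with several mapping places or genes were kept, so reads of overlapping exons and near copies can be shared. Of 35773 gene IDs, 35514 matched a symbol. Genes reaching 10 counts in 3 libraries or more were tested in 1 fit of all 18 samples with edgeR 4.0.16 in R 4.3.3 (TMM factors, robust quasi-likelihood F test). Groups came from the labels. Levels used size factors of DESeq2 1.42.0 and exonic length. Alternatives were other scalings, filters, tools and thresholds, each library left out, a replicate term, thinned ESC-ASC counts and, chosen after seeing the data, replicates 2 and 3 only. A gene that is part of the counts is not reported here. The test was checked on simulated counts. The genes and the lists of roles, partners and markers were chosen with earlier results of these data known. Values in every library are given for Col4a1, Col4a2, Lama1, Lama5, Lamb1 and Lamc1 and for the 5 called genes with the largest rise and the 5 with the largest fall in each comparison. Of each partner list, up to 4 called genes per comparison with the largest changes could be named.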

Additional observations from a re-analysis of the deposited data

Results flagged for a closer look

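The difference between ABCL cells and their kind of parent was not the same for AFSC and for ESC in 28 of the 41 genes (edgeR interaction test over all tested genes, of which 45.2% passed). Values follow for 27 of them, as the log2 fold change of ASC against AFSC minus that of ESC-ASC against ESC. Among laminins, Lama1 differed by 8.21, Lama3 by 2.79, Lamc1 by 2.73, Lamb2 by 2.06 and Lama5 by 1.3, and Lamb3 by -3.85. Fibrillar collagens gave 7.94 for Col3a1, 5.63 for Col1a1, 4.36 for Col11a1, 3.74 for Col1a2, 2.98 for Col5a3 and 2.22 for Col5a2, against -1.53 for Col27a1 and -2.13 for Col11a2. Among fibril-associated collagens the values were 5.31 for Col20a1, 4.32 for Col12a1, 2.13 for Col9a2, -2.31 for Col22a1 and -2.8 for Col9a3. Type VI chains split, with 5.09 for Col6a3, -5.06 for Col6a4 and -5.32 for Col6a5. The rest were Col13a1 at 3.19, Col17a1 at 2.74, Col26a1 at 2.11, Col7a1 at -4.8 and Col8a2 at -5.43. For Col3a1, Col6a4 and Col8a2 a group held no count, so their fitted values depend on the prior count and give no bound. Other values rest on few counts as well. ESC held 1 count of Col6a5, and AFSC held 3 counts each of Col17a1 and Col26a1. Col20a1 had 4 counts in AFSC replicate 1 and 0 in replicates 2 and 3, and its value was 8.66 with replicates 2 and 3 alone.

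The calls for Col9a3, Col8a2 and Col26a1 missed the threshold when some libraries were left out. Col9a3 did so without ESC replicate 2 (adjusted p = 0.0632) or AFSC replicate 1 (0.134), and Col26a1 without ESC replicate 1 (0.0792) or 2 (0.054) or AFSC replicate 1 (0.0784) or 3 (0.108). Col8a2 did so without any ESC replicate, ASC replicate 1 or 2, ESC-ASC replicate 1 or 2, or AFSC replicate 3 (0.0513 to 0.0787). Groups of 3 libraries were too small for a search for outlying samples.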

How the results depend on the processing

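Of the 243 calls over the 41 genes and 9 comparisons, none changed direction under any alternative run. Among the differences not called, up to 22 changed sign in a single alternative (with replicates 2 and 3 alone), and none of those was called there. The number of collagen and laminin genes called stayed within 1.5 times the main count in all of them except a stricter fold. At more than 4-fold (log2 2), 16 genes were called for ASC against ESC, 13 for ASC against AFSC, 13 for ESC-ASC against ESC, 16 for ESC-ASC against ASC, 14 for EpiLC against ESC and 11 for AFSC against EpiSC. With 1 library left out, the counts were 23 to 27 for ASC against ESC, 23 to 28 for ASC against AFSC, 21 to 27 for ESC-ASC against ESC, 22 to 29 for ESC-ASC against ASC, 20 to 22 for EpiLC against ESC, 28 to 33 for AFSC against ESC, 31 to 33 for EpiSC against ESC, 19 to 23 for AFSC against EpiSC, 25 to 29 for the difference between parents, and 41 for any difference among groups. With replicates 2 and 3 alone, an alternative chosen after seeing the data, the counts in that order were 29, 24, 25, 20, 22, 33, 32, 21, 26 and 41. The split moved from 9 higher and 16 lower to 13 and 12 in ESC-ASC against ESC, and from 16 and 12 to 12 and 12 in ASC against AFSC. That fit no longer called Col16a1 in ASC against ESC, Col4a2, Col6a4, Col11a1 and Lamb2 in ASC against AFSC, Col26a1 in AFSC against ESC, Col13a1 in EpiSC against ESC, Col13a1, Lamb3 and Lamc1 in AFSC against EpiSC, Lama1, Lama4, Lama5 and Col20a1 in ESC-ASC against ESC, and Col4a1, Col7a1, Lamc1, Col11a1, Col20a1 and Col22a1 in ESC-ASC against ASC, and it no longer called Lama5 and Col26a1 for the difference between parents. It added Col2a1, Col5a2, Col6a3 and Col9a3 in ASC against ESC, Col4a2, Col7a1, Col9a3 and Col13a1 in ESC-ASC against ESC, Col18a1 in AFSC against ESC, and Col4a5 and Col20a1 in AFSC against EpiSC. Single calls of scarce chains ended under other settings, and the cause was not tested. In DESeq2 these were Col11a1 in ASC against ESC (adjusted p = 0.0695), Col8a2 in ASC against AFSC (0.0804) and Col11a2 in EpiLC against ESC (0.0752). With only the compared groups in the fit, they were Col11a1 (0.117) and Col16a1 (0.0611) in ASC against ESC, Col8a2 (0.0692) and Col6a4 (0.0631) in ASC against AFSC, Col11a2 (0.056) in EpiLC against ESC, Col4a5 (0.0505), Col4a6 (0.0884) and Col26a1 (0.0766) in AFSC against ESC, and Lama3 (0.146) in AFSC against EpiSC. Without a filter on low counts, Col4a2 in ASC against AFSC (0.0568), Col11a2 in EpiLC against ESC (0.0774), and Col9a3 in EpiSC against ESC (0.116) and for the difference between parents (0.0636) missed the threshold, and Col11a1 in ASC against ESC and Col22a1 in ESC-ASC against ASC fell just short of 2-fold. Upper quartile factors ended the call of Col11a1 in ASC against ESC (0.0718). Thinned ESC-ASC counts ended the calls of Lama4 against ESC (0.0569), Col6a5 against ASC (0.0811) and Col8a2 for the difference between parents (0.32), and Col4a2 in ASC against AFSC fell just short of 2-fold. Upper quartile scaling moved the median of all genes to 0.148 in ASC against ESC, 0.14 in ESC-ASC against ESC and 0.183 in EpiLC against ESC.

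Deviations of same-numbered libraries had a mean correlation of 0.0539 over 45 pairs (-0.114 to 0.332). Over 90 pairs of different number the mean was -0.0259 (-0.253 to 0.233). The correlation exceeded 0.1 in 16 of the 45 and in 12 of the 90 pairs, and 8 of 18 libraries correlated best with their own number. These values do not settle whether replicate numbers pair the samples. A replicate block in the fit gave counts of 26, 28, 26, 26, 21, 33, 33, 23, 28 and 41 in that order, and Col11a2 in EpiLC against ESC moved to an adjusted p of 0.0511. Depth limits the scarce chains most: in a group with 0 counts a fold is only a bound, and 14 of the 55 genes could not be tested.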
